A study of Mus musculus with 4 samples.

Results

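Collagen chain genes encode the alpha chains from which every collagen molecule is assembled. They were selected here by name alone, as all mouse genes with a symbol of the form Col, number, a, number. The selection gave 44 genes. Of these, 42 had a transcript listed in the expression files, among 17574 genes with a symbol and a listed transcript. Col9a1 and Col26a1 had none, so their expression was not analysed here, although their coding sequences enter the repeat counts below. The libraries came from SCC7 tumours, which form when cells of this murine line of head and neck squamous cell carcinoma are injected subcutaneously into C3H/HeN mice. All animals are labelled wild type. The control group had 2 libraries, and its label says only that it was the control, without saying whether an isotype antibody was given. The anti-CD71 group also had 2 libraries, from mice given an antibody to CD71, the transferrin receptor, on days 6 and 9 after a start point that the labels do not define. Tumours of both groups were taken on day 10. The labels do not say that the libraries of a group came from separate mice, so the p-values below measure only the spread between these libraries, which may be technical.

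A collagen molecule consists of alpha chains wound around one another in a triple helix. Each chain can enter the helix only where glycine, the smallest residue, recurs in the pattern Gly-X-Y, and proline and its hydroxylated form are frequent at the X and Y places. Fibril-forming collagens (types I, II, III, V, XI, XXIV and XXVII) have a long, nearly unbroken helix and pack into the fibres of connective tissue. Type IV forms the sheet-like network of basement membranes, type VI forms beaded filaments around cells, and type VII anchors epidermis to dermis. The fibril-associated collagens (FACITs) bind to the surface of fibrils, the membrane-spanning collagens sit in the plasma membrane, and the multiplexins (types XV and XVIII) lie in or beside basement membranes. In solid tumours fibroblasts are a major source of the fibrillar types, while vessels and tumour cells contribute basement membrane chains.

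These features can be read in the genes themselves. For each gene the transcript with the longest coding sequence was taken from the GENCODE annotation of GRCm38 and checked for completeness. Of the 44 genes, 42 gave a complete coding sequence by this rule, and Col6a3 and Col6a5 did not. In each of the 42 the longest unbroken run of Gly-X-Y was at least 20 repeats. Among all 21541 genes with a coding sequence, 20 genes outside the family reached 20 repeats, and the median run of the genes outside it was 2. Fibril-forming chains had runs of 216 to 344 repeats and 21 to 33 coding exons of exactly 54 bases, a length that holds 6 repeats. Type IV chains, whose helix is broken by short interruptions, had runs of 39 to 66 repeats and 1 to 3 such exons. The multiplexins had runs of 30 repeats and 1 to 3 such exons. FACITs spanned 32 to 113 repeats, and the 3 hexagonal network chains, with runs of 60 to 61, had no exon of 54 bases.

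The first 54-base exon made up wholly of Gly-X-Y is printed for 7 chains that the results below turn on, with the glycine codon that opens each repeat in capitals, so that the shared pattern can be seen. A glycine codon at an X or Y place is left in lower case. All are in the coding strand, 5′ to 3′, from GENCODE transcripts on GRCm38. The exons are exon 15 of 66 in Col5a1 (chr2:27965251-27965304, plus strand), exon 6 of 54 in Col5a2 (chr1:45434892-45434945, minus), exon 15 of 67 in Col5a3 (chr9:20801068-20801121, minus), exon 8 of 51 in Col1a1 (chr11:94939904-94939957, plus), exon 8 of 52 in Col1a2 (chr6:4515481-4515534, plus), exon 7 of 52 in Col4a1 (chr8:11245211-11245264, minus) and exon 27 of 41 in Col18a1 (chr10:77067379-77067432, minus).
Col5a1: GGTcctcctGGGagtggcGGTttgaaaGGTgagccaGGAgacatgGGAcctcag
Col5a2: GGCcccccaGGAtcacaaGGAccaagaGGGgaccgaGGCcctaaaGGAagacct
Col5a3: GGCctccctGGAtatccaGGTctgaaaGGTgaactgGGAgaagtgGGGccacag
Col1a1: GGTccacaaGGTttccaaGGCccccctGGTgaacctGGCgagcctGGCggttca
Col1a2: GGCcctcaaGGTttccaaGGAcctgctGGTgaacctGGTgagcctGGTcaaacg
Col4a1: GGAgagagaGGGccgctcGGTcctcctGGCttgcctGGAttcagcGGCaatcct
Col18a1: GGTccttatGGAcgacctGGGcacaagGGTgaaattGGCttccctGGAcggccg

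The 7 exons were picked for a glycine codon at every repeat, so the capitals fall there by selection. No pair of chains has the same codons throughout between them, although Col1a1 and Col1a2 share several at the same places. The plot of run length against 54-base exons separates the fibril-forming chains from all other classes by run length.

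**Figure D1:**
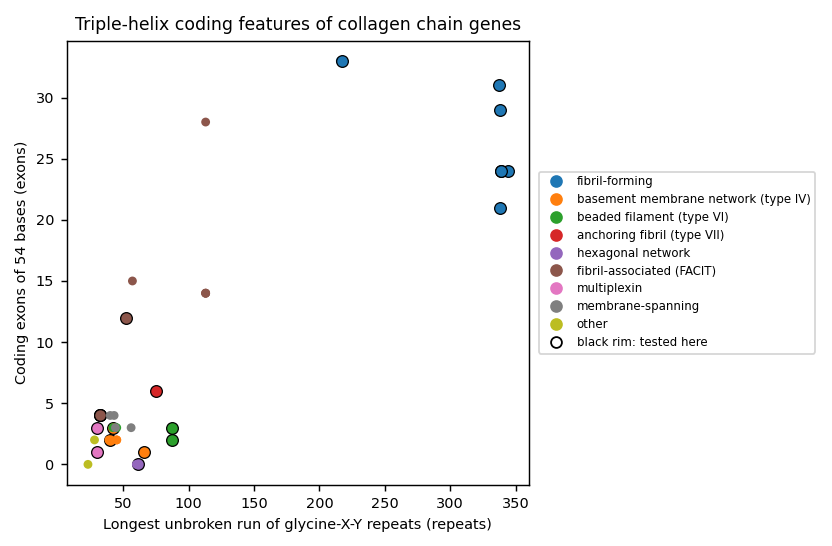
Longest unbroken run of Gly-X-Y repeats (x axis, repeats) against the number of coding exons of 54 bases (y axis, exons). Points are the 42 collagen chain genes that gave a complete coding sequence, coloured by collagen class, with a black rim on genes tested for expression. Col6a3 and Col6a5 are not plotted. The fibril-forming chains lie at 216 repeats or more, and all other classes at 113 or fewer.

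Expression was measured as TPM, a length-corrected share of each library's transcripts, and transcript values were summed per gene. For each control and for anti-CD71 replicate 2 the files list 59881 transcripts, but the file of anti-CD71 replicate 1 breaks off inside a line and gave 13586 usable transcripts, 22.69% of the list. A transcript not listed there is missing and was never counted as 0. This leaves a comparison over all 4 libraries for genes with at least 90% of their TPM in transcripts listed for all, and a comparison of anti-CD71 replicate 2 alone against both controls. The latter has 1 treated library, assumed to vary like the controls, although over 1563 genes the log2 difference between the anti-CD71 libraries had an SD of 0.294 against 0.222 between the controls. Anti-CD71 replicate 2 also stood apart in skin genes: hair follicle markers summed to 0.16 and 0.07 TPM in the controls and 235 TPM there, and suprabasal epidermis markers to 0, 0.04 and 33.7 TPM. Where the shorter file listed such genes, anti-CD71 replicate 1 was low, with Krt25 at 0 TPM against 60.5 TPM in replicate 2. Markers of the labelled squamous type were mixed. In the controls the basal keratins Krt5 and Krt14 were at 0 to 0.1 TPM (31.4 and 36.4 TPM in anti-CD71 replicate 2) and Trp63, Krt15 and Dsg3 were at 0.32 TPM or less, while Itgb4, Itga6 and Dst of the same list were at 36.9 TPM or more. Of the simple epithelial markers, Krt8 and Krt18 were at 657 TPM or more in every complete library. In the controls Cdh1 was at 2.15 and 1.79 TPM, and Epcam, Krt7 and Krt19 at 0.2 TPM or less. Krt18 was at 657 and 680 TPM in the controls and 893 TPM in anti-CD71 replicate 2 (log2 change 0.42). Limma called Krt18 higher there at an adjusted p under 0.05. The adipocyte gene Cfd was also higher in anti-CD71 replicate 2, at 1.90 and 0.99 TPM in the controls and 15.3 TPM there (log2 change 2.76; limma adjusted p = 0.0249), and Adipoq was at 0.78, 0.13 and 2.54 TPM. Tumour pieces are mixtures, so a lower value may come from fewer cells of a type or from less RNA per cell, and these cannot be told apart in bulk libraries.

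Collagen RNA was abundant and concentrated in few genes. The summed TPM of all collagen chain genes was 2026 in control 1, 2603 in control 2 and 2141 in anti-CD71 replicate 2, the last value lying between the controls. Over these libraries 8 genes averaged at least 100 TPM, 9 lay between 10 and 100, 4 between 1 and 10, and 21 were under 1 TPM. Col18a1, whose C-terminal fragment is endostatin, had the highest mean at 426 TPM. Next came Col3a1 at 407 TPM and Col1a2 at 330 TPM, and these 3 genes made up 51.5% of the total. Col6a1 (188 TPM), Col16a1 (125 TPM), Col6a3 (110 TPM), Col4a1 (106 TPM) and Col5a3 (101 TPM) followed. The 12 highest genes held 92.8% of all collagen TPM. Neighbours in this order often could not be separated: Col18a1 was above Col3a1 in control 1 and anti-CD71 replicate 2 and below it in control 2.

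**Figure D2:**
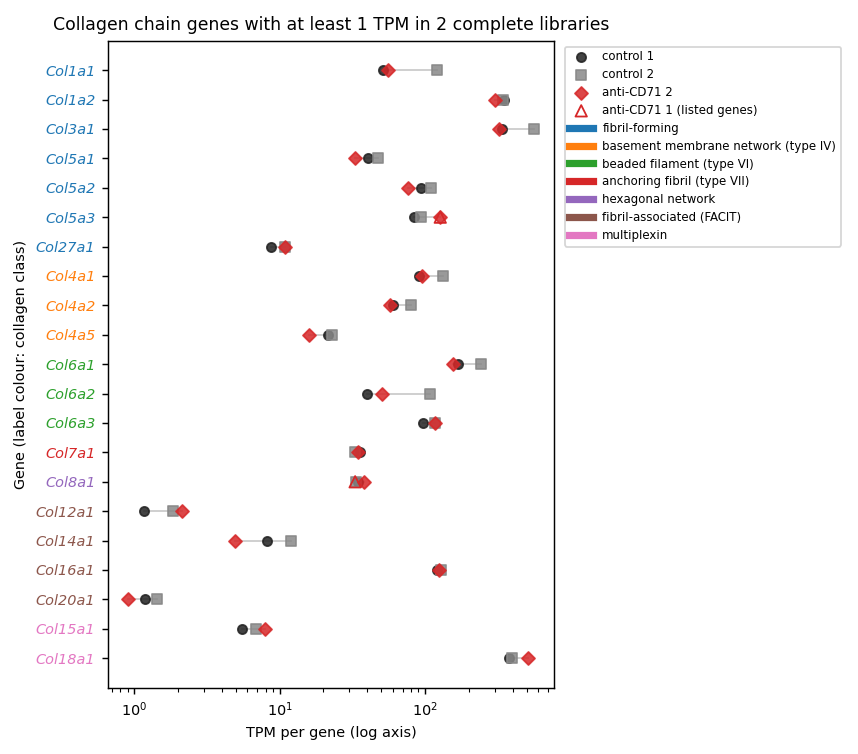
TPM per gene on a log axis (x) for the 21 collagen chain genes with at least 1 TPM in 2 complete libraries (y, coloured by class), with 1 symbol per library and open triangles for anti-CD71 replicate 1 where it could be used. Col1a1, Col3a1 and Col6a2 have control 2 far to the right of the other libraries. Anti-CD71 replicate 2 lies to the right of both controls for 6 genes, Col5a3 and Col18a1 among them, as in 39.5% of all genes. For Col5a3 anti-CD71 replicate 1 does so too.

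The question behind the main comparison is how tumours differed after anti-CD71. Over 4 libraries 2 collagen chain genes could be tested, and 1 of them, Col5a3, rose; Col8a1 was not called. Col5a3 (chromosome 9, 20770050 to 20815117, GRCm38) encodes a type V chain, a minor component of fibrils of type I collagen. Its shared transcripts summed to 82.4 and 92.2 TPM in the controls and to 127 and 126 TPM in the treated libraries (control 87.3 ± 6.93, anti-CD71 126.53 ± 0.78; SD, n = 2 libraries each), so both treated libraries were above both controls. Limma gave a log2 change of 0.53 (SE 0.08) on the log2(TPM + 1) scale with a Benjamini-Hochberg adjusted p of 0.0388 over 1563 genes. Of these genes 4.29% were called, 0.832% as higher and 3.45% as lower. Both treated libraries were above both controls in 28.3% of the genes and below both in 31.1%. The call needed all 4 libraries: the adjusted p was 0.202 without control 1, 0.317 without control 2, 0.083 without anti-CD71 replicate 1 and 0.11 without anti-CD71 replicate 2, with the change at 0.45 to 0.61 throughout. It also missed 0.05 with no filter on low values (0.144), a looser filter (0.0518), no variance trend (0.0659) or any listed transcript admitted (0.116).

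The rise of Col5a3 was present in both transcripts that all 4 files list. These transcripts make up the tested sum, so they give no further support for the call. The main transcript had 72.3 and 79.7 TPM in the controls and 113 and 108 TPM in the treated libraries. A minor one had 10.1 and 12.5 TPM in the controls and 14.5 and 18.4 TPM in the treated libraries. In each of the pair the treated libraries did not overlap the controls. The share of all transcripts that did so was not counted, and among the genes tested over 4 libraries 28.3% had both treated libraries above both controls. Of the treated libraries, anti-CD71 replicate 1 had the higher value for the main transcript and replicate 2 for the minor one. The listed hair follicle keratins were at or near 0 in replicate 1, and their part in the Col5a3 values was not tested.

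Col8a1 encodes a short network-forming chain of vessel walls and of the cornea. It had 34.6 and 33.7 TPM in the controls and 33.0 and 38.2 TPM in the treated libraries, and the groups overlapped. Its log2 change was 0.06 (SE 0.09; limma adjusted p = 0.742), and it was -0.05 without anti-CD71 replicate 2.

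In anti-CD71 replicate 2 against both controls, 21 collagen chain genes passed the filter on low values and none was called by limma at an adjusted p under 0.05, where 2.86% of 11982 genes were (0.476% higher, 2.39% lower). At an unadjusted p under 0.05 there were 7 of the 21, against 24.7% of all genes: Col5a3 and Col18a1 were higher (10.7% of all genes), and Col1a2, Col5a1, Col5a2, Col4a5 and Col14a1 lower (14.0%). The median log2 change of the 21 was -0.21 (range -0.87 to 0.52), beside -0.008 over all genes tested. There were 9 genes above 0 and 12 below, against 48.6% and 51.4% of all genes. Anti-CD71 replicate 2 lay above both controls for 6 genes (39.5% of all genes did so), below both for 9 (42.5%), and between them for 6.

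**Figure D3:**
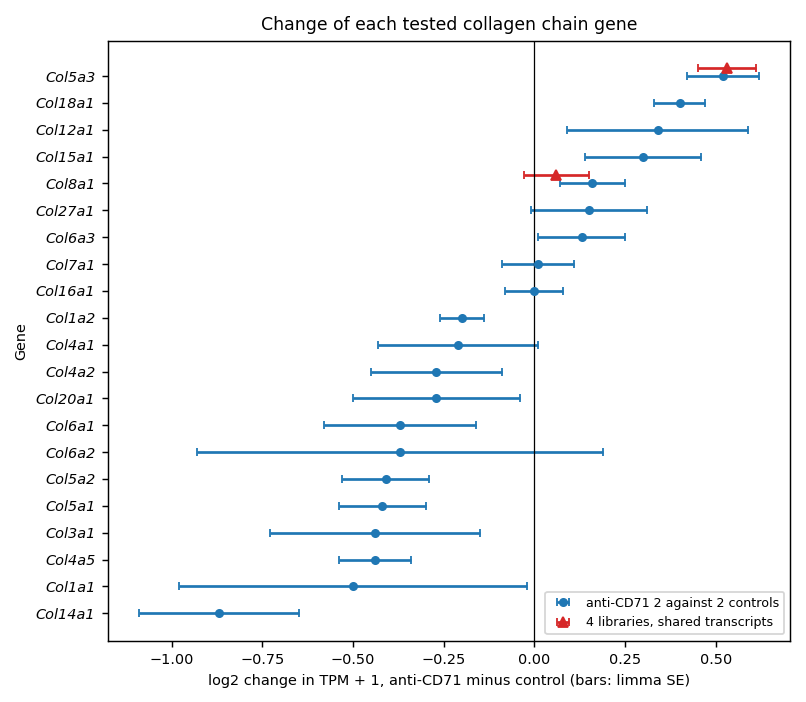
Log2 change in TPM + 1, anti-CD71 minus control (x axis; bars are the limma SE), for each tested collagen chain gene (y axis), with circles for anti-CD71 replicate 2 against both controls and triangles for the 4-library fit. Values run from -0.87 for Col14a1 to 0.52 for Col5a3, and the widest bars belong to Col6a2 and Col1a1.

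Among the fibril-forming chains, those of types I and III, the bulk of fibrous connective tissue, had no call. Col1a1 was at 51.3 TPM in control 1, 122 TPM in control 2 and 55.6 TPM in anti-CD71 replicate 2, a log2 change of -0.50 (SE 0.48; limma adjusted p = 0.556). The treated library lay between the controls, 0.11 above control 1 and 1.11 below control 2 on the log2 scale. Col1a2, which supplies the partner chain of type I, had 346, 344 and 301 TPM in the same order, a log2 change of -0.20 (SE 0.06; adjusted p = 0.151). Its controls were close together, and the treated library was under both. Col3a1, the type III chain of pliable tissues, had 338, 562 and 321 TPM (log2 change -0.44, SE 0.29; adjusted p = 0.397). The summed level of the 11 fibril-forming genes was 962, 1289 and 924 TPM, and the treated library was at 0.821 of the control mean. The rarer fibrillar chain Col27a1 had 8.66, 11.0 and 10.9 TPM, the treated library falling within the control range.

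The type V chains lay on opposite sides of the controls in anti-CD71 replicate 2, with none called there. Type V occurs as heterotrimers that combine the product of Col5a1 with that of Col5a2 and, in some tissues, of Col5a3. Col5a1 was at 40.7 and 47.6 TPM in the controls and 32.8 TPM in anti-CD71 replicate 2 (log2 change -0.42, SE 0.12; limma adjusted p = 0.128). Col5a2 was at 93.3 and 109 TPM in the controls and 75.7 TPM in the treated library (log2 change -0.41, SE 0.12; adjusted p = 0.123). Col5a3 was at 83.8 and 93.3 TPM in the controls and 127 TPM in the treated library (log2 change 0.52, SE 0.10; adjusted p = 0.0629). The first pair lay below both controls and Col5a3 above both. The ratio of Col5a1 to Col5a2 in TPM was 0.437, 0.436 and 0.433 in control 1, control 2 and anti-CD71 replicate 2, and that of Col5a3 to Col5a1 was 2.06, 1.96 and 3.89. In control 1 and control 2 Col5a3 made up 38.5% and 37.3% of type V TPM and in the treated library 54%, while the type V sum (218, 250 and 236 TPM) stayed within the control range. These shares and ratios are a description of 3 libraries and were not tested. A part of Col5a1 can be followed in all 4 libraries, namely its transcript listed in every file, 26.56% of the gene's TPM. This transcript was at 11.3 and 11.2 TPM in the controls and at 6.34 and 9.61 TPM in the treated libraries. The treated values lay below both controls, as they did in 31.1% of the 1563 genes tested over 4 libraries. For Col5a2 no transcript was listed for anti-CD71 replicate 1.

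**Figure D4:**
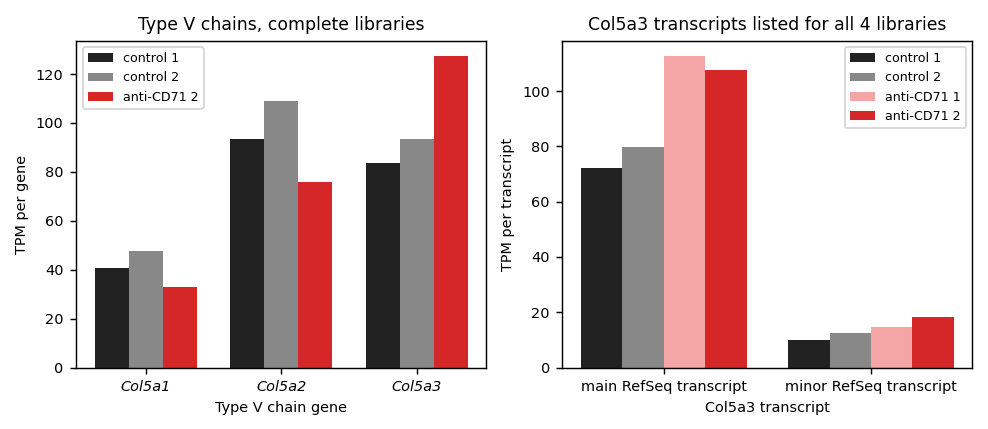
Left, TPM per gene (y axis, bars from 0) of the type V chain genes in the complete libraries; right, TPM per transcript of the Col5a3 transcripts listed for all 4 libraries. Col5a3 is at 127 TPM in anti-CD71 replicate 2 against 83.8 and 93.3 TPM in the controls, and its main transcript is at 113 and 108 TPM in the treated libraries.

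Of the type IV genes, Col4a1, Col4a2 and Col4a5 were tested, and Col4a3, Col4a4 and Col4a6 stayed under 0.14 TPM. Col4a1 and Col4a2 encode the chains common to most basement membranes. Col4a1 had 91.0 and 132 TPM in the controls and 94.5 TPM in anti-CD71 replicate 2 (log2 change -0.21, SE 0.22; limma adjusted p = 0.583). Col4a2 had 59.9, 79.5 and 57.0 TPM in the same order (log2 change -0.27, SE 0.18; adjusted p = 0.389). The ratio of the pair was 1.52 and 1.66 in the controls and 1.66 in the treated library. Their RefSeq gene records on chromosome 8 overlap at their starts on opposite strands (Col4a1 from 11198423 to 11312889, Col4a2 from 11312805 to 11449287), and whether strand was used in quantification is not given in the sources used here. Col4a5, an X-linked chain of specialised basement membranes, had closer controls, 21.3 and 22.8 TPM, and 16.0 TPM in the treated library (log2 change -0.44, SE 0.10; adjusted p = 0.0873). Its listed transcripts, 16.36% of the gene's TPM, did not separate the groups over 4 libraries, at 2.16 and 4.11 TPM in the controls and 1.39 and 3.57 TPM in the treated libraries. Nor were any of the 12 tested basement membrane partners (laminins, nidogens, perlecan, agrin and peroxidasin) called; 6 were above 0 and 6 below. The lowest change in that list was that of the nidogen Nid2, at 9.51 and 9.64 TPM in the controls and 7.04 TPM in anti-CD71 replicate 2 (log2 change -0.40). Nid2 could also be tested over 4 libraries, with 5.57 TPM in anti-CD71 replicate 1. Both treated libraries lay below both controls, as in 31.1% of the 1563 genes. The 4-library log2 change was -0.54 (limma adjusted p = 0.0797), so Nid2 was not called there.

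Type VI chains assemble into microfibrils around cells, and each molecule normally needs the products of Col6a1, Col6a2 and Col6a3 or one of its relatives. Col6a1 had 167 and 241 TPM in the controls and 155 TPM in anti-CD71 replicate 2 (log2 change -0.37, SE 0.21; limma adjusted p = 0.347). Col6a2 had 39.6, 108 and 50.6 TPM, with the treated library between the controls (log2 change -0.37, SE 0.56; adjusted p = 0.715). Col6a3 had 97.1, 116.25 and 116.27 TPM, so that control 2 and the treated library had nearly the same level (log2 change 0.13, SE 0.12; adjusted p = 0.556). The ratio of Col6a1 to Col6a2 was 4.22 in control 1, 2.23 in control 2 and 3.07 in the treated library. Over 4 libraries the listed transcripts of Col6a2 (13.98% of its TPM) gave 5.79 and 15.0 TPM in the controls and 7.80 and 6.92 TPM in the treated libraries, with both treated values inside the control range. Those of Col6a3 (37.47%) gave 42.4 and 41.7 TPM in the controls and 32.7 and 39.5 TPM in the treated libraries. Both treated values lay below the controls, as in 31.1% of the 1563 genes tested over 4 libraries. The whole gene in anti-CD71 replicate 2 was instead at or above the controls. Col6a4, Col6a5 and Col6a6 were at 0.38 TPM or less in each complete library.

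The multiplexins were the class with the highest level in anti-CD71 replicate 2 relative to the controls among classes with a tested gene. Col18a1 (chromosome 10, 77052178 to 77166530) had 378 and 393 TPM in the controls and 507 TPM in the treated library (log2 change 0.40, SE 0.07; limma adjusted p = 0.0522). The controls were close and the treated library stood above both, but the adjusted p missed 0.05. In anti-CD71 replicate 1 the listed transcripts held 0.11% of its TPM, which left no check in the other treated library. Col15a1 had 5.54, 6.89 and 7.87 TPM (log2 change 0.30, SE 0.16; adjusted p = 0.308). Both together were 18.9% of all collagen TPM in control 1, 15.4% in control 2 and 24.1% in the treated library. The multiplexin sum was 384 and 399.9 TPM in the controls and 515 TPM in that library. The type IV sum was 172, 235 and 168 TPM, and the type VI sum, at 305, 466 and 323 TPM, lay between the controls.

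The remaining tested genes had no call. Col14a1, a FACIT that coats fibrils, had the lowest change of all 21 genes, with 8.18 and 11.9 TPM in the controls and 4.96 TPM in anti-CD71 replicate 2 (log2 change -0.87, SE 0.22; limma adjusted p = 0.106). Another FACIT, Col12a1, had 1.16, 1.85 and 2.13 TPM (log2 change 0.34, SE 0.25; adjusted p = 0.455), and Col20a1 had 1.19, 1.43 and 0.91 TPM. Col14a1 and Col12a1, close relatives in structure, lay on opposite sides of the controls, and the difference between them was not tested. Col16a1, also a FACIT, had 121, 129 and 125 TPM (log2 change 0.00, SE 0.08; adjusted p = 0.984). Its curated transcript is listed only under an identifier with a copy suffix. Without that record the gene had 25.4, 28.9 and 29.1 TPM, with the treated library above both controls. With all such records left out its log2 change was 0.1. Its place in the order of levels, its change of 0.00 and its position between the controls therefore rest on that record. Col7a1, the anchoring fibril chain, had 35.9, 32.9 and 34.6 TPM, with the treated library between the controls (log2 change 0.01, SE 0.10; adjusted p = 0.953).

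The 21 genes under the filter included the cartilage chains Col2a1, Col9a2, Col9a3, Col10a1, Col11a1 and Col11a2, none above 0.61 TPM. Of these 21 genes, 16 never reached 0.5 TPM. The pair that reached 1 TPM did so in anti-CD71 replicate 2, and both are membrane-spanning. Col17a1, a hemidesmosome protein of basal keratinocytes, had 0.21 and 0.26 TPM in the controls and 1.91 TPM there. Its listed transcript had 0.28 TPM in the first treated library and 1.41 TPM in the other, so 1 library of the treated pair was high. Col13a1 had 0.77, 0.42 and 1.30 TPM, and a further membrane-spanning chain, Col23a1, 0.17, 0.16 and 0.71 TPM. Beside these values stand the skin genes of the same library: Krt5 at 0, 0 and 31.4 TPM and Krt14 at 0.09, 0.10 and 36.4 TPM in control 1, control 2 and anti-CD71 replicate 2. Their part in the values of Col17a1, Col13a1 and Col23a1 was not tested.

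Most collagen chain genes were higher in control 2 than in control 1. This held for 18 of the 21 tested genes, against 53.9% of all genes, with a median log2 difference of 0.26 beside 0.014. Col6a2 (log2 difference 1.43), Col1a1 (1.23) and Col3a1 (0.73) were each at least 1.5-fold higher in control 2, as were 1.44% of all genes. They ranked 24, 34 and 102 of 11982 by this difference, and lay above the 99th percentile of 0.68. The partner chain Col1a2 did not share this (-0.01), and the ratio of Col1a1 to Col1a2 was 0.148 in control 1, 0.353 in control 2 and 0.185 in anti-CD71 replicate 2. Against control 1 alone Col1a1, Col4a1 and Col6a2 had log2 changes of 0.11, 0.05 and 0.34 in anti-CD71 replicate 2, and against control 2 alone of -1.11, -0.48 and -1.08.

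Some fibroblast markers differed between the controls along with these chains, and others did not. The fibroblast proteoglycan Dcn had 13.6 TPM in control 1, 45.1 in control 2 and 30.7 in anti-CD71 replicate 2. Lum had 1.07, 8.94 and 4.72 TPM and Dpt 0.38, 6.92 and 2.20 TPM in the same order. Pdgfra, a receptor of fibroblasts, did not follow them, with 94.4 and 92.8 TPM in the controls, and it fell to 59.5 TPM in anti-CD71 replicate 2 (log2 change -0.64; limma adjusted p = 0.0321). It was the only one of the 10 genes in the fibroblast list, which also holds Col15a1, to be called, and the summed list was at 372, 411 and 398 TPM. Pdpn was the largest part of that sum, at 207, 180.3 and 259.7 TPM, and without it the sum was 166 and 231 TPM in the controls and 138 TPM in the treated library, below both. Pdgfrb had the lowest change of the list, at 24.2 and 35.2 TPM in the controls and 12.1 TPM in anti-CD71 replicate 2 (log2 change -1.21). Of the list's changes 4 were above 0 and 6 below. None of the list was at 0 in all complete libraries. The skeletal muscle list was higher in control 1, at 186 TPM against 52.8 TPM in control 2 and 121 TPM in anti-CD71 replicate 2. The part of any cell type in the collagen values was not tested.

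**Figure D5:**
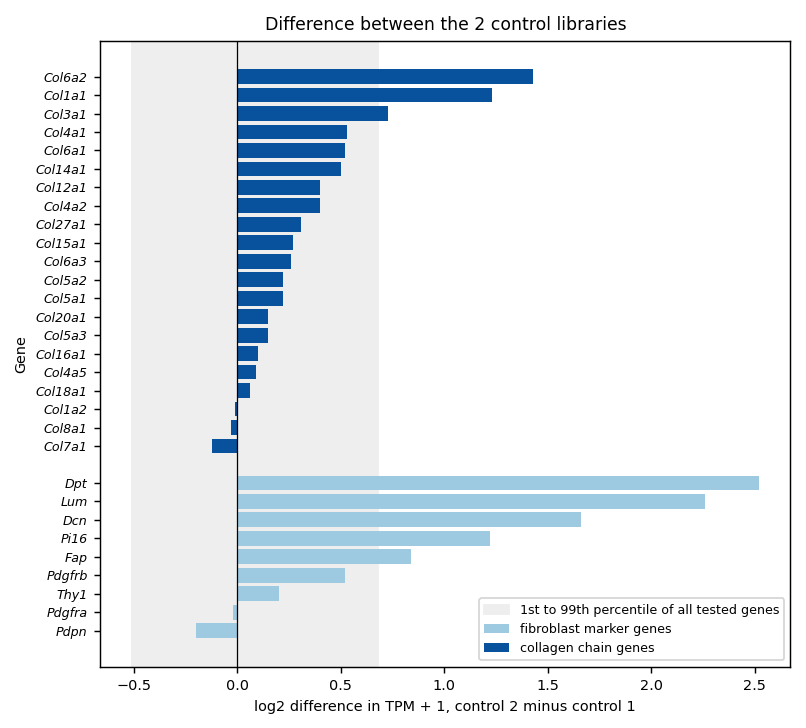
Log2 difference in TPM + 1 between the controls, control 2 minus control 1 (x axis), for the 21 tested collagen chain genes and 9 fibroblast marker genes (y axis); grey marks the 1st to 99th percentile of all tested genes. Col6a2 (1.43), Col1a1 (1.23) and Col3a1 (0.73) lie beyond the grey band, as do the markers Dpt, Lum, Dcn, Pi16 and Fap.

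Genes that make, process and bind collagen were examined in the same library comparison. Of the enzymes and chaperones of collagen synthesis (prolyl and lysyl hydroxylases, the collagen chaperone Serpinh1 and others) 20 of 21 were tested and none was called, 13 being above 0 and 7 below, with a median log2 change of 0.03. Serpinh1 had 470 and 536 TPM in the controls and 477 TPM in anti-CD71 replicate 2. The largest changes in the list were 0.44 for the prolyl 3-hydroxylase gene P3h2 and -0.41 for the prolyl 4-hydroxylase gene P4ha3. Of the processing and crosslinking genes 11 of 14 were tested, with none called and a median of 0.21. The largest changes there were 0.50 for the procollagen N-proteinase Adamts2 (0.85, 1.37 and 1.96 TPM; limma adjusted p = 0.294) and 0.36 for the lysyl oxidase Loxl2. The lysyl oxidase Lox had 0.63 TPM in control 1, 3.17 in control 2 and 2.17 in anti-CD71 replicate 2, the same order of libraries as Col1a1 and Col6a2.

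Calls appeared among collagen receptors and fibril partners. Of 8 tested receptor and uptake genes 1 rose and 1 fell, where 0.476% of all genes tested were called higher and 2.39% lower. Ctsk, encoding the collagen-cleaving protease cathepsin K, rose from 4.59 and 3.50 TPM in the controls to 16.7 TPM in anti-CD71 replicate 2 (log2 change 1.82; limma adjusted p = 0.0249). In all 4 libraries its shared transcripts were at 4.41 and 3.23 TPM in the controls and 7.90 and 16.1 TPM in the treated libraries, a log2 change of 1.37 with an adjusted p of 0.0759. The adipocyte and skin genes named above were higher in anti-CD71 replicate 2 as well, and their part in the value of Ctsk was not tested. Lair1, an inhibitory collagen receptor of leukocytes, had 27.4 and 26.4 TPM in the controls and fell to 14.4 TPM in the treated library (-0.86; adjusted p = 0.0288). The 6 leukocyte markers summed to 1009 and 1202 TPM in the controls and 500.1 TPM in anti-CD71 replicate 2, and all 6 changes were below 0. Csf1r, the 1 marker tested over 4 libraries, had 126 and 157 TPM in the controls. It had 69.4 and 66.8 TPM in the treated libraries (log2 change -1.03; limma adjusted p = 0.032). The part of the leukocyte markers in the fall of Lair1 was not tested.

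Of 9 tested fibril partners, 2 fell and none rose, beside 2.39% and 0.476% of all genes. Leukocyte markers (5 of 6) and Pdgfra were called lower in the same library, and their part in these values was not tested. Fn1, the fibronectin gene, fell from 603 and 636 TPM in the controls to 402 TPM in anti-CD71 replicate 2 (log2 change -0.62; limma adjusted p = 0.0288). The small proteoglycan gene Ogn fell from 159 and 169 TPM to 102 TPM (-0.68; adjusted p = 0.0316). Bgn, whose product biglycan binds fibrils, had 307 and 486 TPM in the controls and 162 TPM in the treated library (-1.25; adjusted p = 0.0771). Tnc, encoding tenascin C, had 3.79, 6.86 and 11.0 TPM (0.97; adjusted p = 0.143). The list's median was 0.29 with 5 genes above 0 and 4 below, while its summed TPM was 1168 and 1444 in the controls and 795 in the treated library, so the median and the sum pointed in opposite directions.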

How the data were processed

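RNA from the tumours was sequenced in bulk, and the authors deposited 1 table of TPM per transcript for each library. Per the submitters' processing notes the build is GRCm38.p6, while no aligner or quantifier is named in the sources used. Since read depth cannot be recovered from TPM, it is unknown, and counting intervals are left out. RefSeq identifiers were matched to symbols through the RefSeq gene table (58425 of 59881 transcripts; 0.74 to 1.55% of TPM had no symbol), with 1744 records carrying a copy suffix added to their gene. Genes with at least 1 TPM in 2 libraries were tested with limma 3.58.1 (R 4.3.3) on log2(TPM + 1), with a trended variance prior and Benjamini-Hochberg adjustment over all genes at 0.05; the fit was checked on simulated data. Full statistics are given for the 12 highest genes, for called genes, and for the 5 highest and 5 lowest changes; from each pathway list, for called genes and the 2 with the largest changes; further genes were named after their values were seen, and 1 gene that the rule names is not reported here. Repeat runs were read from GENCODE M21 coding sequences. The genes and lists were chosen with earlier results of these data known. Alternatives were another pseudocount, other filters, median scaling, no variance trend, another share of listed TPM, a replicate block and each library left out.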

Additional observations from a re-analysis of the deposited data

How the results depend on the processing

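None of the 21 collagen chain genes was called for anti-CD71 replicate 2 under any alternative run. Counts over all genes moved more. The 4-library count of 67 (13 higher, 54 lower) was 1 with no filter, 8 with a filter of 1 TPM in 1 library, 4 without the variance trend, 4 with any listed transcript and 0 to 37 with a library left out, 0 of these without control 1 (limma; 277 at an unadjusted p under 0.05), 2 without control 2 and 10 without anti-CD71 replicate 2. Median scaling gave 57, split 21 higher and 36 lower. The count of 343 for anti-CD71 replicate 2 was 0 with no filter (limma; 3401 at an unadjusted p under 0.05), 72 with a filter of 1 TPM in 1 library, 225 with median scaling and 35 without the trend. With the replicate number as a block the 4-library count was 3; same-numbered libraries did not deviate together (r = -0.0055 across 1563 genes), so the numbers were not taken as pairs. Col5a3 kept its direction throughout, with adjusted p at 0.0328 to 0.0452 under another pseudocount, median scaling or a 50% listing share, and 0.144 with no filter, 0.0518 with the looser filter, 0.0659 without the trend, 0.0918 with the block and 0.116 with any listed transcript. With a library left out, the log2 change of Col8a1 ran from -0.05 (without anti-CD71 replicate 2) to 0.16 (without replicate 1). The adjusted p of Col18a1 was 0.0517 to 0.204. Of 150 single-gene values with a test, 140 kept their sign and side of the threshold, 9 (Col5a3) lost the call and 1 (Col8a1) changed sign. Another 42 values, against 1 control alone, have no test. Among them the 6 genes with the treated library between the controls changed sign. Without control 2 these were Col1a1 (0.11), Col4a1 (0.05), Col6a2 (0.34) and Col7a1 (-0.05). Without control 1 they were Col16a1 (-0.05) and Col27a1, which fell under 0 by less than the rounding. The cause of these shifts was not tested. The ratio of summed collagen TPM to the control mean, 0.925, was 0.823 without control 1 and 1.06 without control 2. With 2 libraries a group and 1 partial file, smaller differences could not be resolved.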
